A study of Homo sapiens with 15 samples.

Results

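The genes described here are the nuclear genes of respiratory complexes II to V and of cytochrome c. They were chosen by symbol: a protein-coding gene in both count tables whose symbol is one of the 4 SDH subunits, 1 of the named subunits of complex III, or CYCS, or begins with a COX4 to COX8, ATP5F1, ATP5M, ATP5P or ATP5IF1 root. The rule found 51 genes among 62700 genes in the tables, of which 20046 are protein-coding. They comprise 4 genes of complex II, 9 of complex III, 1 for cytochrome c, 17 of complex IV and 20 of complex V.

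In oxidative phosphorylation, electrons from succinate enter the inner mitochondrial membrane through complex II (succinate dehydrogenase), pass by way of ubiquinol to complex III, and are carried by cytochrome c to complex IV (cytochrome c oxidase), which reduces oxygen. Complexes III and IV pump protons, and complex V (ATP synthase) uses the proton gradient to make ATP through its F1 head and membrane-embedded Fo part. Complex II is made wholly from nuclear genes, whereas complexes III, IV and V also contain subunits encoded in mitochondrial DNA. Pyruvate dehydrogenase kinase 1 (PDK1) phosphorylates and inactivates pyruvate dehydrogenase, the enzyme that turns pyruvate into acetyl-CoA for the citric acid cycle.

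All 15 libraries came from 143B, an established human osteosarcoma cell line whose tissue is labelled as bone, and each of 5 conditions had 3 libraries. Osteosarcoma stem cells (OSC) were 143B cells grown in serum-free tumorsphere medium with B27, EGF and basic FGF, and non-OSC were 143B cells kept in DMEM with serum, both labelled WT, so cell state and culture medium cannot be told apart. The columns of that table are headed S2D and S3D rather than by the sample titles, and were read as adherent (non-OSC) and sphere (OSC) cultures, on which every direction between them rests. The second experiment compared OSCs infected with lentivirus carrying a control (shCtrl, labelled WT) or either of 2 short hairpins against PDK1, named shPDK1#1 and shPDK1#2. The sources used here do not say whether the libraries of a condition came from separate cultures, or whether infected cells were pools or clones, so p-values measure only the spread between these libraries.

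Library totals ranged from 7992534 to 10495088 expected counts in the OSC table and from 8073103 to 11256578 in the hairpin table. The 51 genes took 0.698 to 0.705% of counts in non-OSC and 0.483 to 0.496% in OSC. They took 0.563 to 0.567% in shCtrl, 0.576 to 0.588% with shPDK1#1 and 0.612 to 0.625% with shPDK1#2. PDK1 itself was at 46.7, 44.7 and 44.4 CPM (counts scaled to a common library size with the TMM factor) in shCtrl, 28.98, 27.8 and 27.3 with shPDK1#1 and 18.3, 21.5 and 19.6 with shPDK1#2, so the hairpin groups carried 62.0% and 43.7% of the control level (edgeR adjusted p = 7.0e-06 and 5.7e-11). Of the osteosarcoma and osteoblast markers, COL1A1, SPP1, VIM and RUNX2 were detected in every library, but moved with the groups. From non-OSC to OSC, SPP1 rose from a mean of 100.1 to 512 CPM, COL1A1 from 417 to 1056 CPM and VIM from 3952 to 5848 CPM, and RUNX2 fell from 37.7 to 17.3 CPM. With shPDK1#2, SPP1 rose from 1449 to 2392 CPM and COL1A1 from 912 to 1303 CPM, and with shPDK1#1 COL1A1 rose to 1039 CPM. The sum of the 9 osteosarcoma and osteoblast markers, most of it VIM, was 4357 to 4597 CPM in non-OSC and 7165 to 7682 in OSC. In the hairpin table it was 7794 to 8240 in shCtrl, 7893 to 8386 with shPDK1#1 and 8985 to 9400.4 with shPDK1#2. IBSP was at 0, SP7 at or near 0, BGLAP at most 0.658, COL1A2 at most 1.67 and ALPL 0.809 to 3.06 CPM. Endothelial markers were at most 1.85 CPM and the epithelial marker EPCAM at most 4.45 CPM. Of 3 myeloid markers PTPRC was at most 0.249 CPM, CD74 at most 1.97 CPM, and CD14 was at 1.74, 2.52 and 2.31 CPM in non-OSC and 0.616, 0.405 and 0.121 CPM in OSC, where it was called lower. Of 4 fibroblast markers, 2 of 3 tested (PDGFRB and LUM) were higher with shPDK1#2 than in shCtrl, and none was at 0 in a whole group. PDGFRB was at 3.18, 2.21 and 2.86 CPM in shCtrl, 5.97, 4.71 and 4.56 with shPDK1#1 and 14.8, 14.3 and 12.7 with shPDK1#2. The sum of the 4 was 269 to 288 CPM in shCtrl, 292 to 313 with shPDK1#1 and 261 to 276 with shPDK1#2, and 174 to 187 in non-OSC and 373 to 394 in OSC, nearly all of it PDGFRA. The part of these markers in the results was not tested, and in bulk RNA fewer cells of a type cannot be told apart from less RNA per cell.

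The genes the results turn on lie as follows in GENCODE release 44 (GRCh38). SDHB (ENSG00000117118.11) is at chr1:17018664-17054032 on the minus strand, SDHD (ENSG00000204370.13) is at chr11:112086824-112120016 on the plus strand, CYCS (ENSG00000172115.9) is at chr7:25118656-25125260 on the minus strand, ATP5MC1 (ENSG00000159199.14) is at chr17:48892765-48895871 on the plus strand and ATP5IF1 (ENSG00000130770.18) is at chr1:28236109-28246906 on the plus strand. Their counts sum reads over all exons of a gene.

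Of the 51 genes, 44 passed the filter on low counts and were tested in each table. The genes that did not pass are mostly tissue-restricted isoforms: COX4I2, COX6A2, COX7A1, COX7B2 and COX8C had 0 counts in all 15 libraries, COX6B2 had 0 to 6 counts, and ATP5MGL had 3 counts in 1 OSC library and 0 elsewhere. A count of 0 allows up to 3 counts per library, for counting error only. ATP5MF-PTCD1, a readthrough transcript, was tested but shares 97.1% of its 75-base stretches with other genes and had 0 to 85 counts, so its values are uncertain. Other genes whose reads can be split with near-identical copies are SDHA (68.5% of 75-base stretches shared), ATP5PO (59.8%), COX6A1 (40.0%), COX8A (24.3%), SDHD (24.0%) and UQCRH (22.5%). ATP5ME (61.3%), ATP5PF (37.3%), UQCR10 (24.5%), ATP5F1E (23.2%) and ATP5PD (19.1%) overlap exons of a gene on the opposite strand, and strand-specific counting is not stated.

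RefSeq promoter windows (GRCh38.p14, 250 bases before to 50 bases after the transcription start) were matched for 39 of the 51 genes, 35 of them tested. They are shown because most of these genes moved together between OSC and non-OSC. Short core motifs of regulators known for respiratory genes were searched on both strands: TGCGCATGC for NRF1, CCGGAAG for ETS factors such as GABPA, AAGATGGCG for YY1 and GGGGCGGGG for SP1. The ETS letters occurred in 16 of the 39 windows (41.0%), against 10.3% of all 35116 windows and 16.3% of the windows of genes tested in the OSC table. The NRF1 letters occurred in 3 windows (COX5B, COX6A1 and SDHD) and the YY1 letters in 3 (SDHB, UQCRC1 and ATP5PF), 7.69% each against 1.56% and 1.75% of all windows. The SP1 letters occurred in 5 (12.8%) against 15.7%. Among the windows of genes tested in the OSC table the shares were 2.30% for NRF1, 3.28% for YY1 and 25.3% for SP1. For the 5 of the 39 genes with more than 1 window, only the first by genomic position was searched. The comparison shares count every window of every gene, so they are not shares of genes. The 150 bases before the RefSeq start are printed for SDHB, SDHD and ATP5MC1, the 3 genes with the largest falls in OSC below, read 5′ to 3′ on the gene's strand with any of the 4 motifs in capitals. The SDHB stretch is chr1:17054033-17054182 on the minus strand, the SDHD stretch chr11:112086723-112086872 on the plus strand and the ATP5MC1 stretch chr17:48892637-48892786 on the plus strand, whose window held none of these letters. The YY1 letters of SDHB lie after the start and outside the printed stretch. The RefSeq starts of SDHD and ATP5MC1 lie downstream of the GENCODE gene starts given above, so the ends of these stretches lie inside the GENCODE genes.
SDHB: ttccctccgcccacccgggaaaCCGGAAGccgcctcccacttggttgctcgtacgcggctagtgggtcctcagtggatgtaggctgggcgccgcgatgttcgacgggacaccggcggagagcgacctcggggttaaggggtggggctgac
SDHD: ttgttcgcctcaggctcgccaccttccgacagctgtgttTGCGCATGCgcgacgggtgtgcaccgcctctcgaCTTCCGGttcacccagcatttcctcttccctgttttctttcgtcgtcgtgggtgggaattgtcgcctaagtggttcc
ATP5MC1: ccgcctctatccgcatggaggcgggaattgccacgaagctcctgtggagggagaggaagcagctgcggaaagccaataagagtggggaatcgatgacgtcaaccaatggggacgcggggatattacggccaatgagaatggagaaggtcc
The capitals in SDHB are the ETS letters, and in SDHD the NRF1 letters followed by the ETS letters read on the other strand. Among the 35 tested genes with a window, the median log2 fold change in OSC was -0.53 for the 16 with the ETS letters and -0.53 for the 19 without them.

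The comparison of OSC with non-OSC asks how the transcripts of the respiratory chain differ between sphere-grown and serum-grown 143B cells. Nearly all of the tested genes were lower in OSC: 39 of 44 fell and 1 rose at an adjusted p under 0.05 (edgeR quasi-likelihood test, Benjamini-Hochberg over 14288 genes). Over all genes tested 31.5% were called lower and 32.4% higher. The median log2 fold change of the 44 genes was -0.54, against -0.01 for all genes tested. All 39 falls were called under each of the 15 alternative settings. In each of the 39 genes the 3 OSC libraries lay below the 3 non-OSC libraries. The share of all genes separated in this way was not computed. The same libraries gave the calls, so this separation adds no support to them. Summed over the 51 genes, the level was 7067, 7091 and 7201 CPM in non-OSC and 4757, 4842 and 4942 CPM in OSC, 68.1% of the non-OSC mean. The sums of the 4 complexes stood close together, at 68.7% for complex II, 68.2% for III, 70.9% for IV and 66.1% for V.

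**Figure D1:**
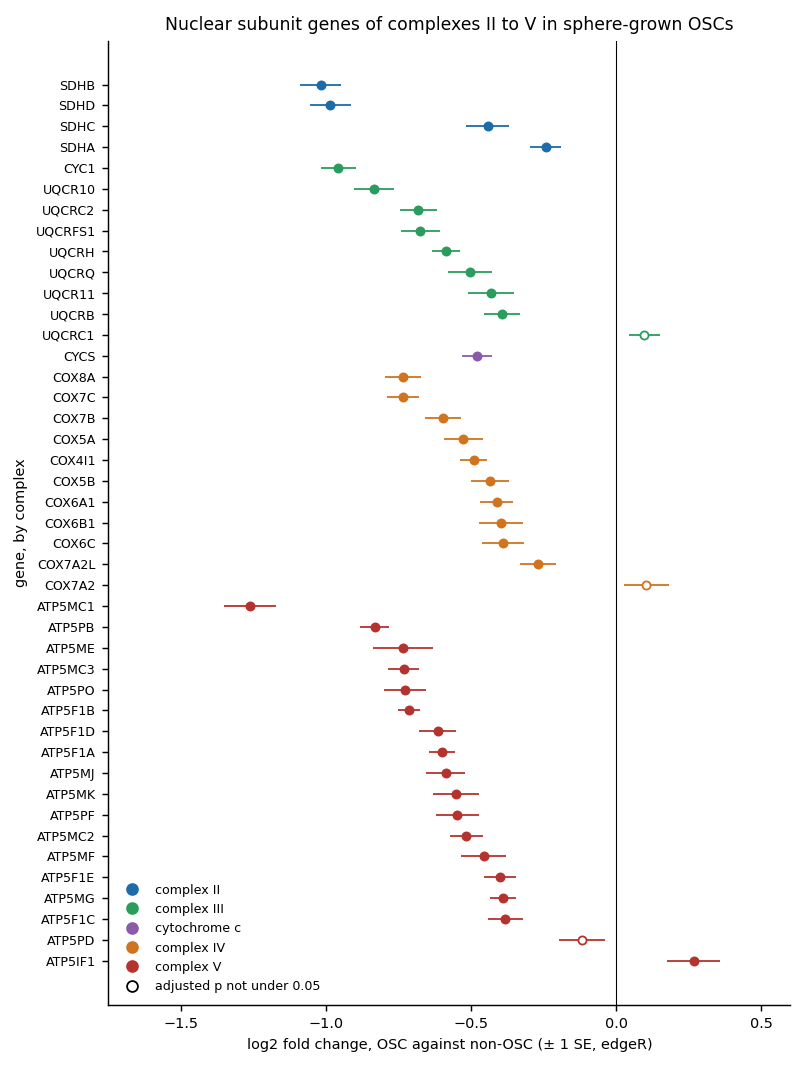
Log2 fold change of each tested gene between OSC and non-OSC (x axis, bars are 1 SE from edgeR, 3 libraries a group), grouped by complex and sorted (y axis). Filled points have an adjusted p under 0.05, and ATP5MF-PTCD1 is not drawn. The points run from ATP5MC1 at -1.26 to ATP5IF1 at 0.27, and the open points are UQCRC1, COX7A2 and ATP5PD.

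Within complex II the 4 subunits fell by unequal amounts. SDHB, the iron-sulphur subunit, was at 91.03, 93.3 and 99.7 CPM in non-OSC and 43.4, 47.6 and 49.05 CPM in OSC, 49.3% of the non-OSC mean (log2 fold change -1.02 ± 0.071 SE, edgeR adjusted p = 4.6e-11). SDHD, a membrane anchor that holds part of the ubiquinone site, was at 96.5, 100.04 and 91.9 CPM in non-OSC and 48.8, 45.2 and 52.1 CPM in OSC (log2 fold change -0.98 ± 0.071 SE, edgeR adjusted p = 7.6e-11). Both thus stood at about the same fraction of their non-OSC level, with no overlap between groups. SDHC, the other membrane anchor, was at 72.8, 72.7 and 66.4 CPM in non-OSC and 55.6, 50.7 and 49.9 CPM in OSC (log2 fold change -0.44 ± 0.074 SE, edgeR adjusted p = 2.0e-05). SDHA, the flavoprotein that oxidises succinate, was at 191, 206 and 211 CPM in non-OSC and 169, 167 and 178 CPM in OSC (log2 fold change -0.24 ± 0.053 SE, edgeR adjusted p = 4.4e-04). Its fall was the smallest of the 4, and its groups did not overlap either. Counts of SDHB per 100 counts of SDHA in the same library, which need no scaling, were 47.7, 45.2 and 47.2 in non-OSC and 25.7, 28.5 and 27.6 in OSC. Counts of SDHD per 100 of SDHA were 50.6, 48.5 and 43.5 and 28.9, 27.1 and 29.3. The pairs were picked with their values in view and carry no test. SDHA shares 68.5% of its 75-base stretches with other genes. The gene that shares most of them, ENSG00000286001, was not among the pseudogenes whose counts were added in an alternative. Splitting of reads with it was not tested.

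In complex III, 8 of 9 genes fell and UQCRC1 did not pass the test. CYC1, the cytochrome c1 that hands electrons to cytochrome c, was at 285, 316 and 328 CPM in non-OSC and 147, 161 and 169.97 CPM in OSC (log2 fold change -0.96 ± 0.059 SE, edgeR adjusted p = 5.8e-12). UQCR10, a small supernumerary subunit, was at 84.2, 83.3 and 87.05 CPM in non-OSC and 50.02, 46.7 and 45.9 CPM in OSC (log2 fold change -0.84 ± 0.069 SE, edgeR adjusted p = 7.0e-10). UQCRFS1, the Rieske iron-sulphur protein, was at 121, 126 and 124 CPM in non-OSC and 82.05, 69.1 and 81.4 CPM in OSC (log2 fold change -0.67 ± 0.067 SE, edgeR adjusted p = 1.4e-08). In each of these genes the OSC libraries lay below all non-OSC libraries. The 2 core proteins parted: UQCRC2 was at 166, 149 and 175 CPM in non-OSC and 108, 96.7 and 101 CPM in OSC (log2 fold change -0.68), whereas UQCRC1 was at 162, 169.99 and 167 CPM in non-OSC and 168, 176 and 190.1 CPM in OSC (log2 fold change 0.10 ± 0.055 SE, edgeR adjusted p = 0.13). The UQCRC1 groups overlapped. Counts of UQCRC2 per 100 counts of UQCRC1 were 102, 87.4 and 105 in non-OSC and 64.3, 55.01 and 52.9 in OSC, again without a test. The other falls in complex III, those of UQCRH, UQCRQ, UQCR11 and UQCRB, ran from -0.59 to -0.39 on the log2 scale. CYCS, the mobile electron carrier that also takes part in apoptosis, was at 477, 413 and 412 CPM in non-OSC and 321, 303 and 311 CPM in OSC (log2 fold change -0.48 ± 0.053 SE, edgeR adjusted p = 6.7e-08). Its non-OSC libraries were more spread than its OSC libraries, but the groups stayed apart.

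**Figure D2:**
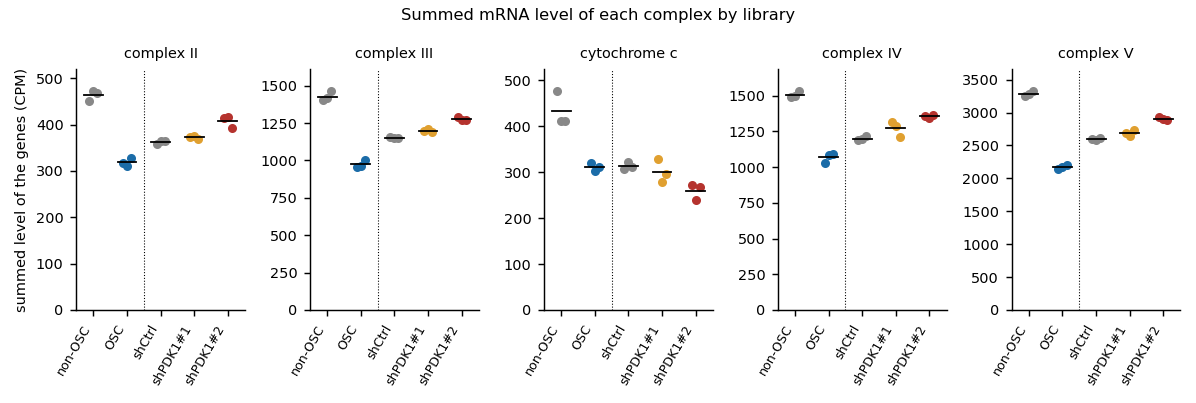
Summed level of the genes of each complex (y axis, CPM) in every library of the 5 conditions (x axis), with points for libraries and a bar for the mean of 3. The dotted line separates the 2 tables, which are not compared. In each panel the OSC points lie below the non-OSC points, and cytochrome c is the panel in which the shPDK1#2 points lie below the shCtrl points.

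Complex IV had the smallest median change of the complexes (log2 fold change -0.43 over 11 tested genes, against -0.71 in complex II, -0.59 in complex III and -0.59 in complex V). 10 of the 11 genes were called lower. The falls ran from -0.73 for COX8A and -0.73 for COX7C to -0.27 for COX7A2L. COX7A2, a liver-type subunit, did not pass the test: it was at 51.6, 47.1 and 46.2 CPM in non-OSC and 50.02, 52.5 and 53.2 CPM in OSC, with overlapping groups (log2 fold change 0.10 ± 0.077 SE, edgeR adjusted p = 0.25). COX4I1, the ubiquitous form of the largest nuclear subunit, was at 282, 295 and 289.8 CPM in non-OSC and 199, 213 and 205 CPM in OSC, and its oxygen-regulated counterpart COX4I2 had 0 counts in all of them. COX6A1, the non-muscle form, was at 151, 169.6 and 165 CPM in non-OSC and 119.6, 121 and 124 CPM in OSC, beside COX6A2 at 0. COX6B1 was at 80.7, 82.3 and 88.5 CPM in non-OSC and 56.2, 65.4 and 69.2 CPM in OSC. COX7B was at 127, 115 and 127 CPM in non-OSC and 81.2, 82.05 and 81.2 CPM in OSC, and COX8A went from 187, 207 and 218 CPM to 114, 125 and 128 CPM. The groups did not overlap in any of the genes called lower, which adds no support to calls from the same libraries.

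In complex V, 16 of 19 tested genes fell and 1 rose. The catalytic F1 head fell in all 5 of its subunits. ATP5F1B, the catalytic beta subunit and at 853, 858 and 855 CPM in non-OSC the most counted of the 51 genes, was at 509, 517 and 538 CPM in OSC (log2 fold change -0.71 ± 0.039 SE, edgeR adjusted p = 6.4e-13). ATP5F1A, the alpha subunit, was at 495, 492 and 497 CPM in non-OSC and 342, 309 and 329 CPM in OSC (log2 fold change -0.60 ± 0.045 SE, edgeR adjusted p = 1.3e-10). The alpha and beta subunits thus fell together. The central-stalk genes ATP5F1C (from 109, 105 and 109 to 82.7, 84.8 and 80.3 CPM), ATP5F1D (from 128, 143 and 142 to 85.00, 90.1 and 94.5 CPM) and ATP5F1E (from 169, 189 and 173 to 132, 137 and 133 CPM) had log2 fold changes of -0.38, -0.62 and -0.40, that of ATP5F1D being -1.04 with an offset for the trend over GC content. ATP5PB, a peripheral-stalk subunit, was at 56.1% of its non-OSC level (log2 fold change -0.83), while its stalk neighbour ATP5PD was at 58.1, 50.2 and 58.8 CPM in non-OSC and 54.5, 50.8 and 48.9 CPM in OSC, with overlapping groups (edgeR adjusted p = 0.21).

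The largest called fall among the 44 genes was in ATP5MC1, 1 of 3 genes that encode the same mature subunit c of the proton-conducting ring. It was at 55.6, 59.2 and 58.2 CPM in non-OSC and 21.2, 26.00 and 24.6 CPM in OSC, 41.5% of the non-OSC mean (log2 fold change -1.26 ± 0.090 SE, edgeR adjusted p = 6.0e-11). ATP5MC2 went from 181, 182 and 203 CPM to 131, 129 and 136 CPM and ATP5MC3 from 264, 275 and 279 CPM to 150.05, 171 and 170.2 CPM (log2 fold changes -0.52 and -0.73). All 3 genes fell, ATP5MC1 furthest. The 1 gene that rose was ATP5IF1, which encodes the inhibitor that blocks ATP hydrolysis by complex V. It was at 37.9, 41.2 and 40.5 CPM in non-OSC and 42.1, 53.9 and 47.2 CPM in OSC (log2 fold change 0.27 ± 0.091 SE, edgeR adjusted p = 0.014). The lowest OSC library was just above the highest non-OSC library, and without OSC replicate 2 the call was lost (log2 fold change 0.17, edgeR adjusted p = 0.15). Counts of ATP5IF1 per 100 counts of ATP5F1B were 4.44, 4.79 and 4.74 in non-OSC and 8.28, 10.4 and 8.77 in OSC, a description without a test.

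Ratios between related subunit genes within a library were tested where both genes had at least 10 counts in every library, which left 3 of 10 pairs. In OSC the log2 ratio of ATP5MC1 to ATP5MC2 counts was -2.62, -2.31 and -2.47, against -1.70, -1.62 and -1.80 in non-OSC, a difference of -0.76. The ratio of ATP5MC3 to ATP5MC2 was 0.20, 0.40 and 0.32 against 0.54, 0.59 and 0.45, a difference of -0.22. COX7A2L, a COX7A-family protein that takes part in supercomplex assembly, stood to COX7A2 at 0.93, 0.84 and 0.87 in OSC and 1.27, 1.21 and 1.28 in non-OSC, a difference of -0.37. None of the 3 ratios overlapped between OSC and non-OSC. Each had an exact permutation p of 0.1 (two-sided, adjusted p = 0.1 over the 3 pairs), the smallest that 3 against 3 libraries allow, so this design could not reach 0.05.

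**Figure D3:**
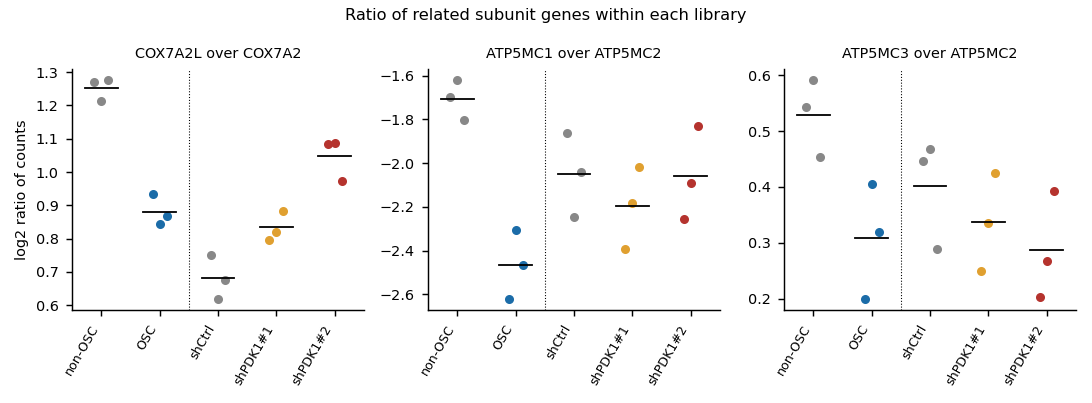
Log2 ratio of the counts of 2 related genes (y axis) in every library of the 5 conditions (x axis), with a bar for the mean of 3. Left, COX7A2L to COX7A2 was lower in OSC than in non-OSC and higher with shPDK1#2 than in shCtrl, with no overlap. The other panels show the subunit c genes, whose hairpin libraries overlapped those of shCtrl.

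The hairpin experiment compares these genes between OSCs carrying a PDK1 hairpin and OSCs carrying shCtrl. The part of lower PDK1 in the differences was not tested. With shPDK1#1 none of the 44 tested genes was called in either direction (edgeR adjusted p, 14597 genes tested), where 1.62% of all genes were called higher and 1.44% lower. At an unadjusted p under 0.05 there were 13, and DESeq2 also called 0. The median log2 fold change was 0.07 with a median SE of 0.0603, against a median of 0.0025 for all genes tested. Of the 44 values 35 were positive, and in 12 genes the 3 shPDK1#1 libraries lay above the 3 shCtrl libraries. The shares of all genes with an unadjusted p under 0.05, a positive value or such separation were not computed, so these counts have no baseline here. The largest value was that of COX7A2L at 0.18 (edgeR adjusted p = 0.15). Summed over the 51 genes the level was 5607, 5618 and 5649 CPM in shCtrl and 5912, 5797 and 5796 CPM with shPDK1#1, 104% of control. With shPDK1#1 replicate 2 left out, 3 genes passed (UQCRB, ATP5MG and ATP5PB, all higher).

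With shPDK1#2, which left less PDK1, 22 of the 44 genes rose and 1 fell, against 11.9% of all tested genes called higher and 14.2% lower. The median log2 fold change was 0.18, with 0.01 for all genes. The rises were small, at most 0.53 on the log2 scale, and 14 of the 22 were called under every one of 19 alternative settings. The summed level was 6271, 6171 and 6176 CPM, 110.3% of shCtrl. By complex, 1 of 4 genes rose in complex II, 5 of 9 in complex III, 6 of 11 in complex IV and 10 of 19 in complex V, and the summed levels were 112%, 111%, 113% and 112% of shCtrl. Both hairpins were set against the same shCtrl libraries, so their fold changes share any error in those libraries.

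**Figure D4:**
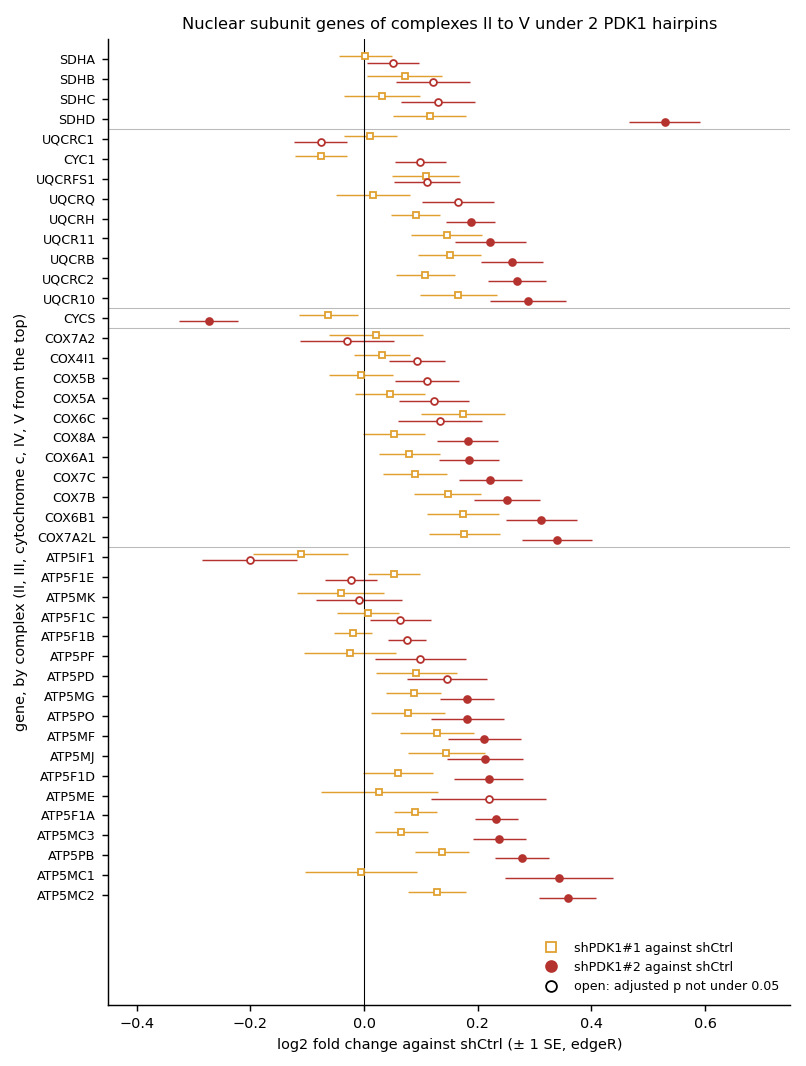
Log2 fold change against shCtrl (x axis, bars are 1 SE from edgeR, 3 libraries a group) of each tested gene except ATP5MF-PTCD1, by complex (y axis), for shPDK1#1 (squares) and shPDK1#2 (circles). Filled symbols have an adjusted p under 0.05. All squares are open, SDHD has the rightmost circle at 0.53 and CYCS the leftmost at -0.27.

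SDHD rose most. It was at 60.5, 59.5 and 64.6 CPM in shCtrl, 71.02, 64.5 and 64.8 with shPDK1#1 and 91.8, 86.95 and 87.2 with shPDK1#2 (log2 fold change 0.53 ± 0.062 SE for shPDK1#2, edgeR adjusted p = 2.8e-07). All 3 shPDK1#2 libraries stood above every other library of that table. The other complex II genes did not pass the test. SDHB was at 58.00, 60.5 and 56.5 CPM in shCtrl and 64.3, 64.5 and 61.8 CPM with shPDK1#2, SDHC at 54.8, 60.2 and 61.7 and 63.3, 67.04 and 63.01 CPM, and SDHA at 186, 185 and 183 and 194, 199 and 179.8 CPM (edgeR adjusted p = 0.18, 0.16 and 0.47). Counts of SDHD per 100 counts of SDHA were 32.6, 32.2 and 35.4 in shCtrl, 38.2, 34.3 and 35.9 with shPDK1#1 and 47.3, 43.8 and 48.5 with shPDK1#2. Part of the SDHD sequence (24.0%) is shared with other genes. Adding the counts of pseudogenes named after SDHD changed no call. The gene that shares most of that sequence, ENSG00000255292, was not among them, so splitting of reads with it was not tested.

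The single fall was in CYCS. It was at 308, 323 and 312 CPM in shCtrl, 329, 278 and 297 with shPDK1#1 and 272, 241 and 267 with shPDK1#2 (log2 fold change -0.27 ± 0.052 SE for shPDK1#2, edgeR adjusted p = 2.6e-04). CYCS thus moved opposite to the called genes of complexes III and IV, with its shPDK1#2 libraries below all others of the table and its shPDK1#1 libraries running from below to above the shCtrl range. CYC1, its electron donor, was at 246, 224 and 224 CPM in shCtrl and 243, 249.6 and 250.1 CPM with shPDK1#2, and did not pass (edgeR adjusted p = 0.11). Counts of CYCS per 100 counts of CYC1 were 125, 144 and 139.6 in shCtrl, 151, 123 and 139 with shPDK1#1 and 112, 96.4 and 107 with shPDK1#2, given without a test.

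Among the complex III genes, the called rises with shPDK1#2 were UQCR10 (0.29), UQCRC2 (0.27), UQCRB (0.26), UQCR11 (0.22) and UQCRH (0.19) on the log2 scale. UQCRFS1 was at 93.8, 95.3 and 89.95 CPM in shCtrl and 99.6, 95.8 and 106 CPM with shPDK1#2, and UQCRC1 at 178, 179 and 179 and 173, 171 and 165 CPM (edgeR adjusted p = 0.17 and 0.25). UQCRC1 was thus uncalled in both experiments, although its shPDK1#2 libraries were all below those of shCtrl. In complex IV, COX7A2L was at 84.3, 88.3 and 90.7 CPM in shCtrl and 115, 104 and 113 CPM with shPDK1#2 (log2 fold change 0.34 ± 0.062 SE, edgeR adjusted p = 1.4e-04). COX6B1, a subunit at the interface of the complex IV dimer, was at 67.3, 70.6 and 71.2 and 81.6, 93.5 and 84.5 CPM (log2 fold change 0.31 ± 0.062 SE, edgeR adjusted p = 4.3e-04). COX7B, COX7C, COX6A1 and COX8A also rose, by 0.25, 0.22, 0.18 and 0.18. The call of UQCR11 was lost without shPDK1#2 replicate 1 (edgeR adjusted p = 0.062), that of COX6A1 without shCtrl replicate 1 or shPDK1#2 replicate 1 (0.078 and 0.073) and that of COX8A without shCtrl replicate 2 or shPDK1#2 replicate 2 (0.051 and 0.088). COX7A2 was at 50.1, 57.5 and 56.8 CPM in shCtrl and 54.2, 49.04 and 57.8 CPM with shPDK1#2, with overlapping groups (edgeR adjusted p = 0.83). The log2 ratio of COX7A2L to COX7A2 was 0.75, 0.62 and 0.68 in shCtrl, 0.80, 0.82 and 0.88 with shPDK1#1 and 1.08, 1.09 and 0.97 with shPDK1#2. The differences from shCtrl were 0.15 and 0.37, each with an exact permutation p of 0.1 (adjusted p = 0.3), the smallest possible. The subunit c ratios gave exact permutation p-values from 0.2 to 0.9 in the hairpin comparisons.

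In complex V, ATP5MC2 was at 152, 153 and 158 CPM in shCtrl and 207, 204 and 182 CPM with shPDK1#2 (log2 fold change 0.36 ± 0.050 SE, edgeR adjusted p = 3.8e-06). ATP5MC1 was at 41.8, 32.2 and 38.4 and 43.3, 48.03 and 51.04 CPM (log2 fold change 0.34 ± 0.096 SE, edgeR adjusted p = 0.0086). Its call was lost without shCtrl replicate 2 (log2 fold change 0.24, edgeR adjusted p = 0.1) and without shPDK1#2 replicate 3 (0.29, edgeR adjusted p = 0.057). ATP5F1A, the alpha subunit, was at 403, 386 and 406 and 466, 462 and 476 CPM (log2 fold change 0.23 ± 0.037 SE, edgeR adjusted p = 2.9e-05). The beta subunit ATP5F1B was at 629, 632 and 641 and 668, 676 and 659.6 CPM and missed the threshold although its groups did not overlap (log2 fold change 0.08 ± 0.033 SE, edgeR adjusted p = 0.097). ATP5F1C and ATP5F1E also did not pass (edgeR adjusted p = 0.42 and 0.76). ATP5F1D rose by 0.22 (edgeR adjusted p = 0.0084), a call lost without shCtrl replicate 1 (0.18, edgeR adjusted p = 0.064). The F1 head thus did not move as a whole in this comparison, unlike in OSC against non-OSC, where all 5 genes were called. The difference between the experiments was not tested. ATP5PB (0.28), ATP5MC3 (0.24), ATP5MJ (0.21), ATP5MF (0.21), ATP5PO (0.18) and ATP5MG (0.18) completed the called rises. Of these, ATP5MF lost its call without shCtrl replicate 2 (edgeR adjusted p = 0.10), ATP5MJ without shCtrl replicate 1 or 2 or shPDK1#2 replicate 1 (0.14, 0.073 and 0.15), and ATP5PO without shCtrl replicate 1 or 3 or any shPDK1#2 library (0.054 to 0.21). ATP5PO also lost its call with DESeq2 (adjusted p = 0.077), library size alone (0.055) and no filter (0.054), and ATP5PO, ATP5MF, ATP5MJ, COX6A1 and COX8A with an offset for the trend over gene length (0.069 to 0.16). ATP5IF1 was at 57.4, 49.6 and 42.99 CPM in shCtrl, 47.5, 45.96 and 45.9 with shPDK1#1 and 42.8, 44.8 and 43.2 with shPDK1#2, with overlapping groups (log2 fold change -0.20 ± 0.084 SE for shPDK1#2, edgeR adjusted p = 0.079).

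**Figure D5:**
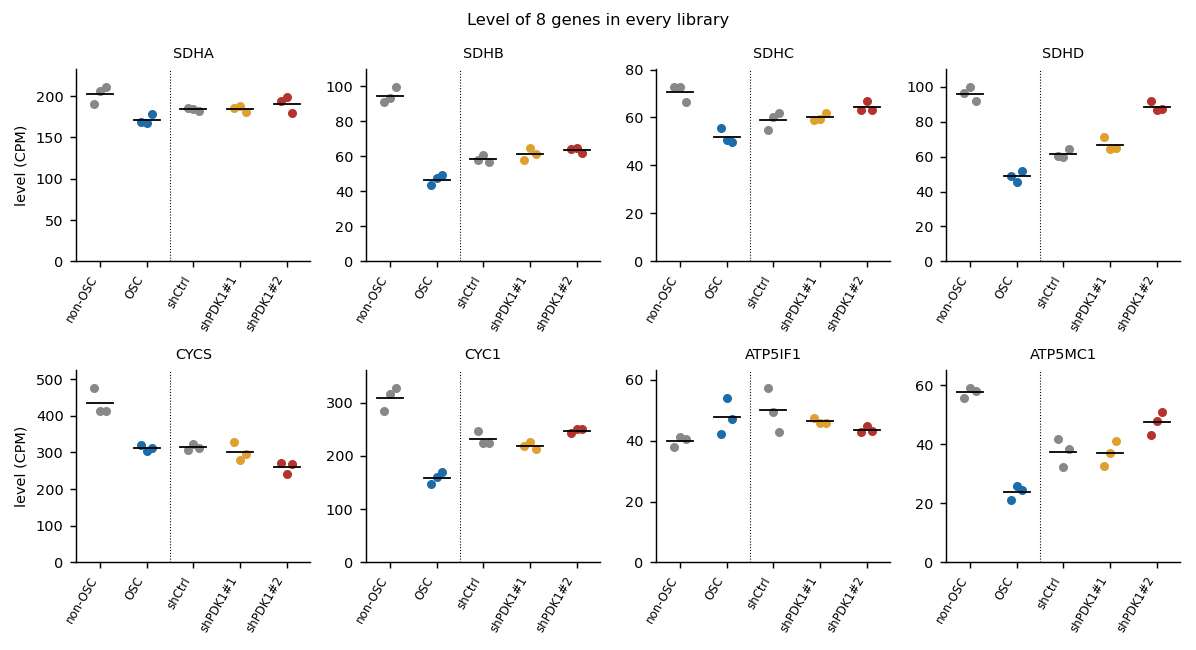
Level in CPM (y axis) of the 4 complex II genes, CYCS, CYC1, ATP5IF1 and ATP5MC1 in every library of the 5 conditions (x axis), with a bar for the mean of 3. The dotted line separates the 2 tables. The shPDK1#2 points of SDHD lie above both other hairpin-table groups. By narrow margins so do those of ATP5MC1, which was called, and of SDHC, which was not. CYCS is lower in OSC and with shPDK1#2.

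The direct comparison of the hairpins, which have different residual PDK1, gave 8 genes higher and 1 lower with shPDK1#2 than with shPDK1#1, where 6.47% of all tested genes were called higher and 9.78% lower. The higher genes were SDHD (0.41 ± 0.061 SE, edgeR adjusted p = 1.8e-05), ATP5MC1 (0.35), ATP5MC2 (0.23), CYC1 (0.17), ATP5MC3 (0.17), UQCRC2 (0.16), ATP5F1A (0.14) and ATP5PB (0.14) on the log2 scale. All 3 subunit c genes were among them. CYCS was lower, at -0.21 (edgeR adjusted p = 0.0058), its call being lost without shPDK1#1 replicate 1 (-0.15, edgeR adjusted p = 0.062) or shPDK1#2 replicate 2 (-0.15, edgeR adjusted p = 0.06). Of the 8 rises, those of SDHD, CYC1, ATP5F1A and ATP5MC2 were called in all 19 alternatives. ATP5MC1 lost its call without shPDK1#1 replicate 1 or shPDK1#2 replicate 3 (edgeR adjusted p = 0.075 and 0.073) and ATP5MC3 without shPDK1#1 replicate 1 (0.063). UQCRC2 lost its call without replicate 1 or 2 of either hairpin (0.068 to 0.14), and ATP5PB without replicate 1 or 3 of shPDK1#2, replicate 2 or 3 of shPDK1#1, or any shCtrl library (0.056 to 0.16), and also with the length-trend offset (0.060) and with only the compared groups in the fit (0.066). The median over the 44 genes was 0.10.

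Lists of the genes that accompany these complexes were examined in the same fits. In OSC against non-OSC, 29 of 37 nuclear complex I genes fell and none rose, with a median log2 fold change of -0.40. Of all genes tested, 31.5% were called lower and 32.4% higher. The calls of NDUFA7, NDUFA13, NDUFB6, NDUFS5 and NDUFV3 were lost in at least 1 alternative. NDUFA3 (-1.20), NDUFS7 (-0.87), an iron-sulphur subunit, and NDUFC2 (-0.72) fell most. Of the 6 mitochondrially encoded subunits of complexes III to V, 4 fell and 1 rose: MT-ATP6, the Fo subunit that forms the proton channel with the c ring, fell from 2516 ± 145 (SD, n = 3) to 1847 ± 50.2 CPM. MT-CO1, the catalytic subunit of complex IV, rose from 6346 ± 188 to 7699 ± 119.6 CPM (log2 fold change 0.28 ± 0.030 SE, edgeR adjusted p = 3.8e-08). The other called falls were MT-CO3 (-0.20), MT-CYB (-0.13) and MT-CO2 (-0.10). Those of MT-CYB and MT-CO2 were lost without OSC replicate 2 (edgeR adjusted p = 0.087 and 0.14), and that of MT-CO2 also without non-OSC replicate 3 (0.057), under library size alone (-0.06, adjusted p = 0.086) and with the length-trend offset, where it was near 0 (-0.01, adjusted p = 0.76). The mitochondrial and nuclear transcripts of complex IV thus did not all move one way.

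Over all genes 31.5% were called lower in OSC and 32.4% higher. Of the assembly factors, 7 of 13 were lower and 1 higher for complexes II and III, 18 of 30 lower and 2 higher for complex IV, and 5 of 8 lower for complex V. Called falls included UQCC5 (-1.18), BCS1L (-1.18), which inserts the Rieske protein, and UQCC3 (-0.86). For complex IV they included SCO1 (-0.99), a copper chaperone, TACO1 (-0.93), a translational activator of MT-CO1, and PET117 (-0.88). For complex V they included ATPAF1 (-1.12), an F1 assembly factor, and OXA1L (-0.70), the inner-membrane insertase. The 5 of 8 in that list also count TIMM21 (-0.65), which is not an assembly factor of complex V. Among the regulators of mitochondrial biogenesis, 8 of 14 fell and 1 rose. PPARGC1B, a coactivator of respiratory genes, fell from 64.7 ± 2.51 to 19.8 ± 0.49 CPM (SD, n = 3, log2 fold change -1.71 ± 0.085 SE, edgeR adjusted p = 1.4e-13). TFAM, the mitochondrial DNA packaging and transcription factor, had a log2 fold change of -0.94 and PPRC1, a related coactivator, one of -0.93. The genes that rose were TTC19 (0.29) for complex III, COX19 (0.35) and COA5 (0.42) for complex IV, and the regulator YY1 (0.39). COX19 lost its call without non-OSC replicate 1 or OSC replicate 2 (edgeR adjusted p = 0.067 and 0.088) and with the length-trend offset (0.052). COA5 lost its call without non-OSC replicate 1 (edgeR adjusted p = 0.061) and with DESeq2 (adjusted p = 0.0503). Among the falls, the calls of UQCC2, COX16, SMIM20, HIGD2A, ATPAF2 and LONP1 were lost in at least 1 alternative. Those of COX16 and SMIM20 were lost with DESeq2 among others (adjusted p = 0.10 and 0.077).

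With shPDK1#1, the called genes in these lists were 3 mitochondrially encoded ones, all lower: MT-CO1 (-0.28), MT-CYB (-0.25) and MT-ATP6 (-0.17). Of all genes tested, 1.44% were called lower in that comparison. The call of MT-ATP6 was lost without shCtrl replicate 3 (-0.12, edgeR adjusted p = 0.18) or shPDK1#1 replicate 2 (-0.11, edgeR adjusted p = 0.082) and with DESeq2. With shPDK1#2, 8 of 37 complex I genes rose, where 11.9% of all genes were called higher. NDUFS3 (0.23) and NDUFB9 (0.21) were called in all alternatives, but the other 6 (NDUFA5, NDUFA8, NDUFA9, NDUFA11, NDUFB5 and NDUFS5) lost their calls without shPDK1#2 replicate 1 (edgeR adjusted p = 0.056 to 0.15), and NDUFA5, NDUFA8, NDUFA11 and NDUFB5 also with DESeq2. Of the mitochondrially encoded genes, 2 of 6 fell, MT-CYB (-0.19) among them. The other fall was MT-ATP8 (-0.45), lost among others without shCtrl replicate 1 (edgeR adjusted p = 0.40) or shPDK1#2 replicate 1 (0.15). No assembly factor of complexes II and III was called with shPDK1#2, and 13 were tested. For complex IV, 3 of 30 rose and 1 fell, which is no more than the 11.9% and 14.2% called higher and lower over all genes. In the complex V list, 3 of 8 rose, TIMM21 among them, and 2 fell. LRPPRC (0.30), which stabilises mitochondrial mRNA, ATPAF1 (0.45), OXA1L (0.30) and TMEM242 (-0.54) were called in all alternatives. The calls of COX16 (0.27), COX20 (0.29), COX19 (-0.45), TIMM21 (0.25) and FMC1 (-0.60) were not: without shCtrl replicate 2 the edgeR adjusted p was 0.076 for COX16, 0.064 for COX20, 0.069 for COX19 and 0.11 for TIMM21, and without shCtrl replicate 1 it was 0.22 for FMC1. Of the regulators, YY1 fell by 0.15 and TFAM rose by 0.21, the latter lost without shCtrl replicate 1 (edgeR adjusted p = 0.068) or shPDK1#2 replicate 3 (0.085).

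Between the hairpins, 4 of 37 complex I genes were higher with shPDK1#2 than with shPDK1#1. Of all genes tested, 6.47% were called higher and 9.78% lower. NDUFS3 (0.25), NDUFA11 (0.25) and NDUFB9 (0.21) were called in all alternatives. The call of NDUFA9 (0.24) was lost, for example, without shPDK1#2 replicate 1 (edgeR adjusted p = 0.18). None of 13 assembly factors of complexes II and III was called. For complex IV, 1 of 30 was higher, LRPPRC (0.21), and 1 lower, COX19 (-0.43). In the complex V list, 2 of 8 were higher, ATPAF1 (0.31) and OXA1L (0.16). Of 14 regulators, 1 was lower, YY1 (-0.15). The calls of COX19, ATPAF1, OXA1L and YY1 were lost in at least 1 alternative. Of the 6 mitochondrially encoded genes, MT-CO1 (0.23), MT-ATP6 (0.17) and MT-CO3 (0.14, lost with DESeq2 and without, for example, shPDK1#1 replicate 2, edgeR adjusted p = 0.17) were higher. MT-CO1 was at 9313 ± 399 CPM in shCtrl, 7679 ± 662 with shPDK1#1 and 8976 ± 260.1 with shPDK1#2 (SD, n = 3). MT-CO1 and MT-ATP6 were thus lower with shPDK1#1 than in shCtrl and than with shPDK1#2, whereas no nuclear gene of complexes II to V was called with shPDK1#1.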

How the data were processed

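The nuclear genes of complexes II to V were followed in RNA-seq of 15 libraries of 143B cells. Per the labels and the study's methods, the authors trimmed paired reads (Trimmomatic 0.39), checked them (FastQC 0.12.1), aligned them to GRCh38.p14 (STAR 2.7.11a) and deposited expected counts per gene (RSEM 1.3.3), in 1 table for OSC and non-OSC and 1 for the hairpins. RSEM splits reads shared between copies by estimate, which can move counts between a gene and its pseudogenes. Here expected counts were rounded (6.85 and 6.92% of values were not whole), genes filtered with filterByExpr, scaled by TMM and tested with edgeR 4.0.16 (glmQLFTest, R 4.3.3), with Benjamini-Hochberg adjustment over all 14288 and 14597 genes tested and a threshold of 0.05. All 9 hairpin libraries entered 1 fit. Expression was not compared between tables. All 62700 identifiers matched GENCODE release 44, from which lengths and shared 75-base stretches were computed. The scripts were tested on simulated data.

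Genes named with values in every library were up to 5 largest called rises and falls per comparison with a mean of at least 10 CPM, the paralog pairs (log2 ratio with a pseudocount of 0.5 counts, exact permutation test) and the core genes of each complex. From lists of complex I genes, mitochondrially encoded subunits, assembly factors and regulators of biogenesis, up to 3 called genes per comparison were named. Further genes and the per-100 ratios were chosen after their values were seen. The members and lists were chosen with earlier results of these data known. Alternatives were DESeq2 1.42.0, library size alone, other filters, a replicate block, offsets for length and GC content (loess span 0.3), added pseudogene counts, only the compared groups in the fit, and each library left out.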

Additional observations from a re-analysis of the deposited data

Results flagged for a closer look

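The 9 genes called in the direct comparison of shPDK1#2 with shPDK1#1 are listed because the effects of the 2 hairpins against the same control differed by a test of the difference itself (edgeR, adjusted over 14597 genes, log2 scale, 3 libraries a group). SDHD was higher with shPDK1#2 by 0.41, ATP5MC1 by 0.35, ATP5MC2 by 0.23, CYC1 by 0.17, ATP5MC3 by 0.17, UQCRC2 by 0.16, ATP5F1A by 0.14 and ATP5PB by 0.14, and each of these was higher in 3 of 3 libraries. CYCS was at -0.21 and lower in 3 of 3 libraries. The same libraries gave the calls, so this separation adds no support to them. Only the calls of SDHD, CYC1, ATP5F1A and ATP5MC2 held in all 19 alternatives. PDK1 was at 62.0% of control with shPDK1#1 and 43.7% with shPDK1#2, and its part in these differences was not tested.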

How the results depend on the processing

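In OSC against non-OSC the 39 falls were called in all 15 alternatives (39 to 40 genes lower, 39 to 40 with a library left out). The count of higher genes was 2 under library size alone (UQCRC1 added), the length-trend offset and the replicate block with that offset (COX7A2 added), and 0 to 2 with a library left out, being 0 without OSC replicate 2. With shPDK1#1 the count of higher genes was 2 under the GC-trend offset and 0 to 3 with a library left out. With shPDK1#2 the rises numbered 17 to 23 (18 to 23 with a library left out), and the falls were 2 under the length-trend offset, the replicate block with that offset and the GC-trend offset, with ATP5IF1 added, and 1 to 2 with a library left out. Against shPDK1#1 the rises were 16 under the GC-trend offset and otherwise 7 to 11, with 6 to 10 when a library was left out, and the fall of CYCS gave 0 to 1. The paralog ratios kept their sign except ATP5MC1 to ATP5MC2 with shPDK1#2 against shCtrl (-0.01), which ranged from -0.12 to 0.0899 with a library left out. Among called values in OSC, the length-trend offset moved COX6B1 from -0.40 to -0.25, ATP5MF from -0.46 to -0.30 and ATP5IF1 from 0.27 to 0.40. No gene that was called changed direction, over 4793 unchanged, 213 lost and 54 gained calls of single genes. The causes of these changes were not tested.

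Same-numbered libraries correlated in their deviations from group means by -0.05 to 0.09, and not every library correlated best with its own number, so the numbers were not taken as a pairing. A replicate block gave 40 lower and 1 higher in OSC, 0 with shPDK1#1, 23 higher and 1 lower with shPDK1#2, and 9 higher and 1 lower between hairpins. Levels per kilobase depended on the length used: the median level per kilobase of complex II, OSC libraries, was 43.0 CPM with the canonical transcript's length and 19.4 CPM with that of all exons, so levels were not ranked between genes.

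With 3 libraries a group, values cover these libraries only, and culture medium and cell state are confounded. The median SE of the genes was 0.0603 on the log2 scale with shPDK1#1, so changes of that size were not detectable at this depth. Larger values also went uncalled there, such as COX7A2L (0.18 ± 0.063 SE, edgeR adjusted p = 0.15) and ATP5PB (0.14 ± 0.048 SE, edgeR adjusted p = 0.14). Transcript counts say nothing of protein, assembly or respiration.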

Other observations

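Processed pseudogenes of ATP5F1A were counted too. ATP5F1AP10 was at 1.45, 1.204 and 1.102 CPM in non-OSC and at 7.88, 6.68 and 5.92 CPM in OSC (log2 fold change 2.43 ± 0.277 SE, edgeR adjusted p = 1.1e-07), while ATP5F1A itself fell. With shPDK1#2 it was at 4.004, 5.46 and 6.15 CPM against 9.76, 9.54 and 9.82 CPM in shCtrl (log2 fold change -0.90 ± 0.190 SE, edgeR adjusted p = 0.00072), while ATP5F1A rose. At these levels, adding the pseudogene counts to ATP5F1A changed no call. ATP5F1AP10 was chosen after its values were seen.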
